A study of Mus musculus with 2 samples.

Results

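Transcripts of the 2-cell-like state were followed in mouse embryonic stem cells given Adriamycin, through 10 genes of the 55414 in the count tables: Duxf3, Zscan4a, Zscan4c, Zscan4d, Zscan4f, Tmem92, Zfp352, Tcstv1, Tcstv3 and Zfp750. The genes were taken by symbol, and all 10 symbols were found. The cells were of the line mESC R1E, labelled WT, in serum medium with LIF, a cytokine that holds mouse stem cells undifferentiated. The untreated group was labelled 0 h, and the Adriamycin group had 0.5 µM of the drug for 8 h. Adriamycin is doxorubicin, which traps topoisomerase II on broken DNA. Each group had 1 RNA-seq library, so no spread between replicates and no test between the groups exists, and drug, time in culture and culture cannot be told apart.

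At the 2-cell stage the mouse embryo begins to transcribe its own genome. Dux, a homeobox transcription factor, is switched on at that point and activates many cleavage-stage genes, among them the Zscan4 family of zinc finger proteins and endogenous MERVL repeats. In embryonic stem cell cultures a small, changing fraction of cells enters a comparable state, and Zscan4 is its classical marker. A bulk library holds all cells of the culture, so more cells in that state and more RNA in each such cell cannot be told apart.

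Near-identical copies shape what can be counted for these genes, and the start of the Zscan4 coding sequence shows how near they are. The first 90 coding bases, from the GENCODE M21 transcripts, are given for 2 Zscan4 members and for Tcstv3, and Zscan4a has no coding sequence there. Capitals mark bases of Zscan4d that differ from Zscan4c, and Tcstv3 was not compared with Zscan4c.
Zscan4c: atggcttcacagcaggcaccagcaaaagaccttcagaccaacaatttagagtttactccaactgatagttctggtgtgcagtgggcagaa
Zscan4d: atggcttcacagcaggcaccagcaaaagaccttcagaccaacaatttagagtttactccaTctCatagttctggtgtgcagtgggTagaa
Tcstv3: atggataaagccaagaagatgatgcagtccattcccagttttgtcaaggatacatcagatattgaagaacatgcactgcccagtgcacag
In this stretch Zscan4d differed from Zscan4c at 3 bases, while Zscan4b, Zscan4e and Zscan4f were the same as Zscan4c at every base. Tcstv1 was the same as Tcstv3. Over the whole coding sequence 1512 of 1518 aligned bases were identical between Zscan4c and Zscan4f, and 1483 of 1518 between Zscan4c and Zscan4d. Tcstv1 and Tcstv3 shared 479 of 507.

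A read from such a stretch fits several genes, and the authors' counting had no option to keep reads that map to several places. Of the 100-base stretches of the Zscan4f transcript, 89.5% also occurred in transcripts of other genes. The share was 72.8% for Zscan4c, 39.1% for Zscan4a, 29.6% for Zscan4d and 33.6% for Duxf3. It was 7.79% for Tcstv3, 4.06% for Tcstv1, 0.643% for Zfp352, and 0 for both Tmem92 and Zfp750. Counts of Zscan4 genes and Duxf3 are thus partial and uncertain, while Zfp750 and Tmem92 have no copy of that length in the annotation. Only GENCODE M21 transcripts were searched, so copies in unannotated parts of the genome are not counted. The shares, those of Tcstv1 and Tcstv3 included, may be too low for that reason. Of read length nothing is given in the sources used here, and 100 and 50 bases were chosen as round values.

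RefSeq promoter windows (build GRCm38.p6) were given for Duxf3, Zscan4c, Zscan4d, Zscan4f and Zfp352 among the members. No window was given for Zscan4a, Tmem92, Tcstv1, Tcstv3 or Zfp750. The 250 bases before the annotated start are shown for 4 of them, because Duxf3 encodes the upstream factor, the Zscan4 genes had nearly equal ratios, and the Zfp352 window is built unlike the others. Capitals mark GATTNNATC on either strand, letters taken from the core of the Dux motif, and in Zfp352 the repeated letters ACAACAC.
Duxf3 (chr10:58233090-58233339, minus strand): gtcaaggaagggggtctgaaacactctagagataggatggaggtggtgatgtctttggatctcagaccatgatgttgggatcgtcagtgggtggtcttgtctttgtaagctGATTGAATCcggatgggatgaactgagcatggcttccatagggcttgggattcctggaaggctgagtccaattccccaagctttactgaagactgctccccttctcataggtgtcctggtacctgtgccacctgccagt
Zscan4c (chr7:11005495-11005744, plus strand): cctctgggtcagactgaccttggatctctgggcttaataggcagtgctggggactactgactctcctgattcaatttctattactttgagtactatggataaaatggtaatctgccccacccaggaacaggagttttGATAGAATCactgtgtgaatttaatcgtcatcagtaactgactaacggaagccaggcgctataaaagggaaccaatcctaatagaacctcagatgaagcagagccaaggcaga
Zscan4d (chr7:11166149-11166398, minus strand): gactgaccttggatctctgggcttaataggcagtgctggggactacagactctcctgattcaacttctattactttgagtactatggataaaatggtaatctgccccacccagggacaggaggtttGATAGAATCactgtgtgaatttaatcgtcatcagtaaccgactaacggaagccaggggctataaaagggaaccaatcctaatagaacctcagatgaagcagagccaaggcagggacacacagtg
Zfp352 (chr4:90218570-90218819, plus strand): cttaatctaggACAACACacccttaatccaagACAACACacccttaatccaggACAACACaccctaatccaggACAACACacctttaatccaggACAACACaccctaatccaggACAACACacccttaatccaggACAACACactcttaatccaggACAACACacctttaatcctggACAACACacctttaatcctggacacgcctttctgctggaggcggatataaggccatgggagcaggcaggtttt
The letters GATTNNATC occurred in 1.39% of all 32851 windows of this length. They were found 1 time in each window of Duxf3, Zscan4c, Zscan4d and Zscan4f, and not in that of Zfp352. In Duxf3 the match, GATTGAATC, began at position -139, counted back from the start, and also met the palindrome GATTNAATC, which was searched after the windows had been seen and which 0.247% of windows held. The match of the Zscan4 windows was GATAGAATC. The Zscan4 letters TGCACAC (3.67% of windows) and the p53 decamer motif (7.13%) were in none of the member windows. The Zfp352 window held ACAACAC 9 times, a repeat that was chosen after it had been seen and that occurs at least 1 time in 2.63% of windows. The Zscan4c window was 99.6% identical to that of Zscan4f and 97.1% to that of Zscan4d over the aligned bases. These matches describe letters and do not show binding.

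The libraries held 41820999 (untreated) and 38561292 (Adriamycin) reads counted on genes, and TMM scaling set their sizes. All 10 stem cell markers were present, from 10962 to 43524 reads in the untreated and from 6395 to 38394 in the Adriamycin library. The fibroblast markers Col3a1, Dcn, Lum and Postn had 0 reads in both libraries, and the trophoblast markers Cdx2 and Elf5 at most 12. Other markers of these lists were present. Thy1 had 484 reads untreated and 448 with Adriamycin, Pdgfrb 636 and 971, and Col1a2 59 and 62. For trophoblast, Krt8 had 858 and 855 reads and Hand1 148 and 125. The primitive endoderm markers summed to 81.6 CPM untreated and 73.1 with Adriamycin, and the trophoblast markers to 91.3 and 106. Within the trophoblast list Krt7 was higher with Adriamycin (34 and 346 reads), Eomes was lower (609 and 119), and Tfap2c had 1969 and 2839 reads. Of the 10 stem cell markers 5 (50%) were at least 2-fold lower, beside 6.95% of all measured genes. All 10 had a mean of at least 100 CPM, where 8.89% of genes were at least 2-fold lower. The 10 markers summed to 6952 CPM untreated and 4014 with Adriamycin. The fibroblast sum was 35.0 and 68.5 CPM, with Col1a1 at 214 and 1295 reads. The part of these shifts in the results was not tested. CPM, the usual unit for counts relative to library size, is here taken on the scaled size, a log2 ratio is Adriamycin over untreated, and a gene with a mean of at least 1 CPM is called measured. Intervals are 95% counting intervals (Clopper-Pearson), which cover counting error only and are too narrow where the mates of a pair were counted separately.

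Every one of the 9 measured members lay above 0 on the log2 ratio scale, by very unequal amounts. With Adriamycin, Duxf3, Tmem92, Tcstv3 and Zfp750 reached 2-fold above the untreated level, no member was lower, and Zfp352 and the 4 Zscan4 genes fell short of 2-fold. Among all 14871 measured genes 17.0% reached 2-fold in the higher direction and 6.95% in the lower. The median log2 ratio was 0.84 for the measured members and -0.03 for all measured genes. Duxf3 had 0.830 CPM in the untreated library and was measured only through the Adriamycin library, and the members were chosen with earlier results known, so the count is a description. Tcstv1 lay under 1 CPM in both libraries.

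**Figure D1:**
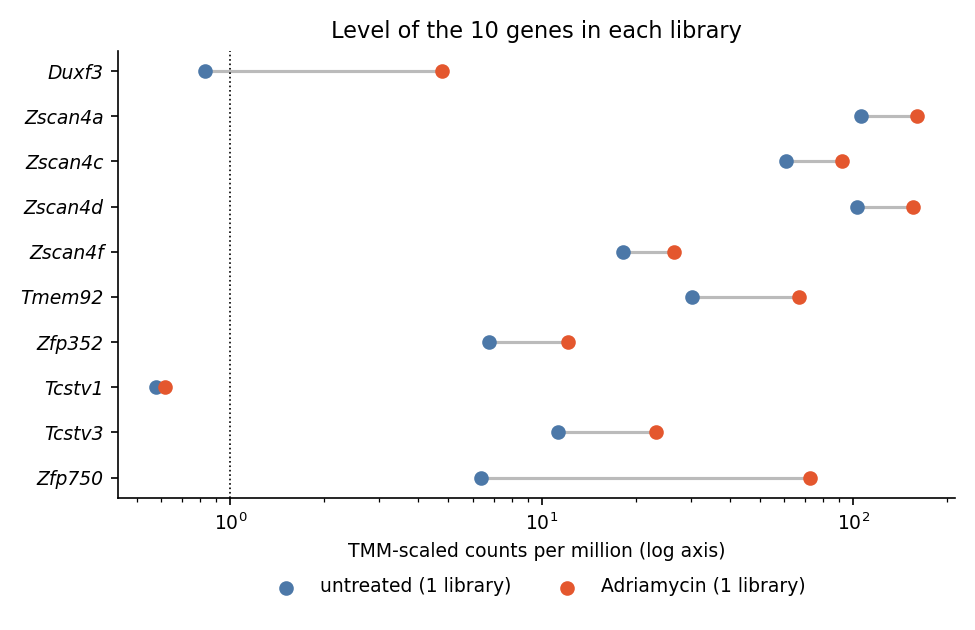
Level of each of the 10 genes in the untreated (blue) and the Adriamycin (red) library, in TMM-scaled CPM on a log axis; each point is 1 library and the dotted line marks 1 CPM. Zfp750 moved from 6.36 to 72.6 CPM, while the points of Tcstv1 lie next to each other at 0.578 and 0.617 CPM.

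Duxf3 encodes the Dux factor that stands at the top of this programme. It lies on chromosome 10 (58065801 to 58068497, GRCm39, minus strand; ENSMUSG00000075046) in 1 exon block of 2697 bases. Positions of all genes below are in the same build. It had 33 reads untreated and 194 with Adriamycin, or 0.830 and 4.78 CPM. The Adriamycin library was the higher one, 5.70-fold, or 2.51 in log2 (1.99 to 3.11). On counts divided by 2, the mates of a pair, the interval was 1.77 to 3.38. Of all measured genes, 4.92% had a ratio as high, and of those with a mean of 1 to 5 CPM, the band of Duxf3, 11.1%.

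Reads on both sides of Duxf3 were more with Adriamycin too. AW822073, 5.05 kb away, shares 48.6% of the 50-base stretches of Duxf3, so reads of the pair are hard to assign. It had 9 reads untreated and 100 with Adriamycin (log2 ratio 3.38). Gm4981, 2.17 kb away on the other side, had 0 and 13 reads, at least 4.25-fold higher against a floor of 3 reads. Summed over these 3 genes, 42 and 307 reads gave a log2 ratio of 2.83 (2.37 to 3.34). The flanking genes Gcc2 and Lims1 had log2 ratios of -0.31 and -0.14. Of the 3 other measured genes within 100 kb, AW822073 was the only one above 0.

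Zscan4a, Zscan4d and Zscan4c had the highest levels of the 10 genes in both libraries, and the ratios of the 4 Zscan4 members were close to one another. Zscan4c, Zscan4d and Zscan4f encode proteins with a SCAN domain and zinc fingers, and Zscan4 acts in telomere upkeep and genome stability of stem cells. Zscan4a (chromosome 7, 10528169 to 10532984), a transcribed pseudogene in RefSeq, had 4208 reads untreated and 6471 with Adriamycin. Zscan4d (10895301 to 10900086) had 4068 and 6293 reads. Zscan4c (10739672 to 10744474) had 2412 and 3727.
Zscan4f (11131842 to 11136245) had the fewest reads of the 4, with 722 and 1076. All 4 were higher in the Adriamycin library. The ratios were 1.51-fold for Zscan4a, 1.52-fold for Zscan4c and Zscan4d and 1.46-fold for Zscan4f. In log2 they ran from 0.55 (0.41 to 0.69) in Zscan4f to 0.60 (0.54 to 0.66) in Zscan4d, and all 4 intervals overlapped. The part that reads shared among copies have in this likeness was not tested.

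The family sum does not depend on which copy a uniquely placed read went to. The 4 members together had 11410 reads untreated and 17567 with Adriamycin, which is 0.59 in log2 (0.56 to 0.63). With Zscan4b and Zscan4e added it was 0.59 (0.56 to 0.63). With the pseudogenes Zscan4-ps1, Zscan4-ps2 and Zscan4-ps3 as well, it was 0.62. Zscan4-ps1 stood highest, at 1430 and 2696 reads, or 0.89 in log2 (0.79 to 0.98). Its interval lay above those of all 4 members.
Of all measured genes, 25.2% to 26.6% had a ratio as high as one of the 4 Zscan4 members. Zscan4a and Zscan4d had means above 100 CPM, where the median log2 ratio of all genes was -0.31 and 7.02% reached 2-fold in the higher direction. In that band 11.5% of genes had a ratio as high as Zscan4a, and 11.3% one as high as Zscan4d. In the band of 20 to 100 CPM the share was 17.5% for Zscan4c and 18.96% for Zscan4f. The 4 Zscan4 members held 83.7% of all untreated reads on the 10 genes and 70.6% of those with Adriamycin. The sum over the 10 genes had a log2 ratio of 0.84 (0.81 to 0.87), above the interval of the Zscan4 sum. That sum includes Zfp750, whose gain of 2690 reads was the largest of any member.

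**Figure D2:**
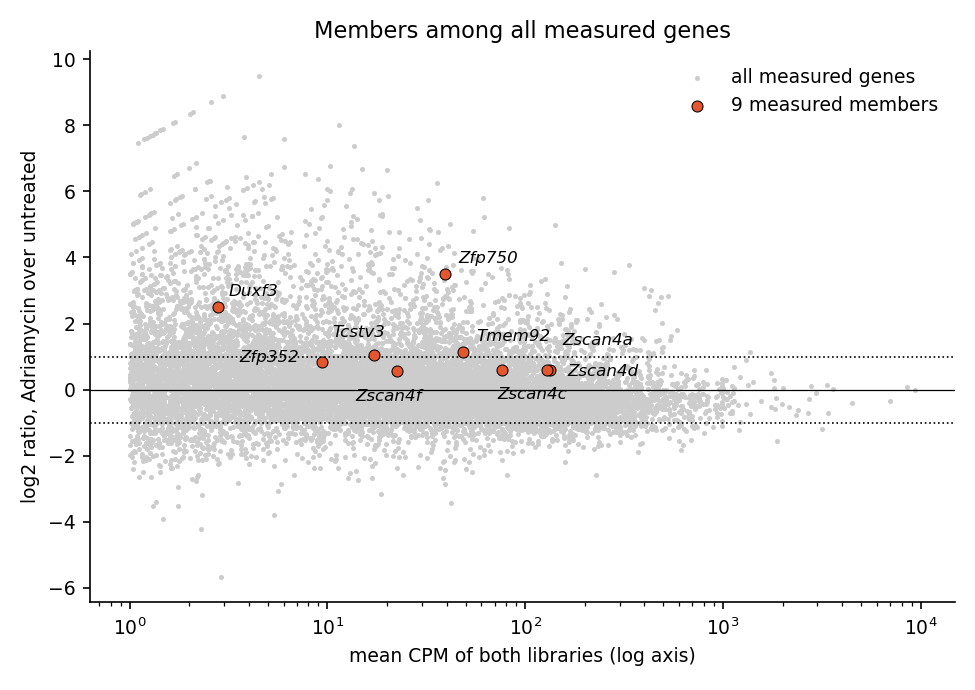
Log2 ratio of Adriamycin over untreated (y) against the mean CPM of both libraries (x, log axis), for all 14871 measured genes (grey) and the 9 measured members (red); dotted lines mark 2-fold. Zfp750 and Duxf3 lie high, at 3.51 and 2.51, and the 4 Zscan4 genes lie close together between 0.55 and 0.60.

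Levels compared between genes depend on the length they are divided by. Per kilobase of annotated exon, the untreated levels were 46.4 CPM for Zscan4a, 45.0 for Zscan4d, 26.6 for Zscan4c and 9.27 for Zscan4f. Per kilobase of starts of 100-base stretches that no other gene holds, they were 79.7, 66.9, 102 and 99.7 CPM in the same order. Zscan4f thus moved from lowest of the 4 to the second highest, and with 50-base stretches to the highest, at 219 CPM.
On annotated exons in the untreated library, Tcstv3 (14.5 CPM per kilobase) and Tmem92 (13.8) stood between Zscan4c and Zscan4f. Zfp352 had 2.96, Zfp750 1.97, Tcstv1 0.414 and Duxf3 0.308. In the Adriamycin library Zfp750, at 22.5 CPM per kilobase, stood below Tmem92 (30.7) and Tcstv3 (29.7) and above Zscan4f (13.5). The order among the Zscan4 genes is therefore not fixed by these counts.

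**Figure D3:**
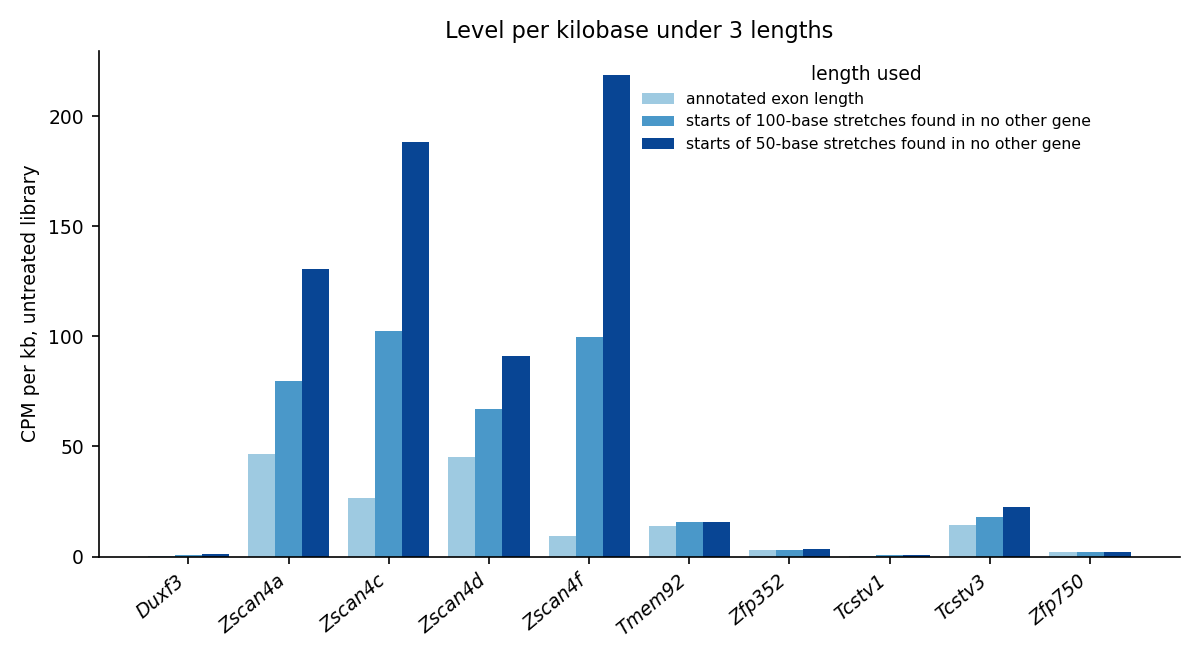
Untreated level of each gene in CPM per kilobase, with 3 choices of length: annotated exons, starts of 100-base stretches and starts of 50-base stretches that occur in no other gene. The bars of Zscan4f rise from 9.27 to 99.7 and 219, while those of Zfp750 stay between 1.97 and 2.03.

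Tcstv1 and Tcstv3 belong to a family transcribed in the 2-cell embryo and variably in stem cells. Tcstv3 (chromosome 13, 120778414 to 120779714, plus strand) had 449 reads untreated and 939 with Adriamycin. It was 2.05-fold higher, with a log2 ratio of 1.04 (0.87 to 1.20). Its interval includes 2-fold, and with upper-quartile scaling the log2 ratio was 0.91, under 2-fold. In the band of Tcstv3, 5 to 20 CPM, 19.9% of genes reached 2-fold in the higher direction and 19.02% had a ratio as high.
Tcstv1 (120354924 to 120356321, minus strand) had only 23 and 25 reads, a log2 ratio of 0.09 (-0.78 to 0.98), and a difference was not detectable at this depth. Close to each of them lay a gene model with a ratio like that of Tcstv3. Gm21761, 17.3 kb from Tcstv1, had 746 and 1586 reads (log2 ratio 1.06). BC147527, 8.10 kb from Tcstv3, had 102 and 237 (1.18).

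Zfp352, a zinc finger gene of the cleavage embryo, lies on chromosome 4 (90107057 to 90113939, plus strand). It had 268 reads untreated and 490 with Adriamycin, 1.79-fold higher, with a log2 ratio of 0.84 (0.62 to 1.06). Its interval includes 2-fold, so counting error alone leaves either side of that fold possible. In its band of 5 to 20 CPM, 23.3% of genes had a ratio as high. It stands alone: the nearest measured genes were Cdkn2b at 878 kb and Elavl2 at 1025 kb.

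Tmem92, a gene for a membrane protein that marks the 2-cell-like state, lies on chromosome 11 (94668043 to 94673529, minus strand). It had 1204 reads untreated and 2719 with Adriamycin. It was 2.21-fold higher, with a log2 ratio of 1.15 (1.05 to 1.25). In its band of 20 to 100 CPM, where 10.3% of genes reached 2-fold, 8.94% had a ratio as high.
The 7 other measured genes within 100 kb of Tmem92 ran from 0.11 to 1.76 in log2. Gm11545 had 68 and 161 reads (log2 ratio 1.21), Gm11546 had 237 and 474 (0.97), and AA623943 had 314 and 670 (1.06). Gm11543 had 569 and 1267 reads (1.13), and Gm11544 had 60 and 209 (1.76). On reads the interval of Gm11544 (1.35 to 2.21) lay above that of Tmem92. On pairs the intervals overlapped, at 1.17 to 2.41 for Gm11544 and 1.01 to 1.29 for Tmem92. Next out on one side, Cdc34b (0.30) and Xylt2 (0.11) were closer to 0. In all, 4 of the 7 other measured genes within 100 kb were at least 2-fold higher, beside 17.0% of all measured genes. Only 2.01% of the 50-base stretches of Tmem92 occur in other genes, most of them in Gm11544.

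Zfp750 differed most of the 10 between the libraries. It encodes a zinc finger transcription factor known from epidermal differentiation. It lies on chromosome 11 (121401804 to 121410159, minus strand; ENSMUSG00000039238), with 3 exon blocks. It had 253 reads untreated and 2943 with Adriamycin, or 6.36 and 72.6 CPM. The Adriamycin value was 11.4-fold higher, with a log2 ratio of 3.51 (3.33 to 3.70). Of all measured genes 2.51% had a ratio as high, and of those in its band of 20 to 100 CPM 0.881%. On reads its interval lay above those of all other members. On pairs it was 3.25 to 3.79 and overlapped that of Duxf3.

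Zfp750 lies within the span of Tbcd, a tubulin cofactor gene on the opposite strand, and the counting did not use strand. None of their exon bases overlap. Tbcd had 5801 reads untreated and 5466 with Adriamycin (log2 ratio -0.11). The nearest other measured genes, Fn3krp and B3gntl1, had log2 ratios of 0.22 and 0.21. Of the 3 other measured genes within 100 kb of Zfp750, 0 reached 2-fold in the higher direction, beside 17.0% of all measured genes. An absence among 3 genes is close to that share. Near Duxf3 it was 1 of 3, AW822073, which shares stretches with Duxf3, and near Tmem92 4 of 7.
Markers of squamous epithelium, where Zfp750 is best known, were uneven. Krt5 had 11 reads untreated and 1199 with Adriamycin, and Krt14 had 22 and 70. Trp63, the factor that defines basal epithelium, had 4 and 2 reads, the differentiation gene Lor 9 and 18, and Ivl 0 in both. Klf4, which stem cells also express, had a log2 ratio of -0.62. The part of such cells in the Zfp750 reads was not tested.

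**Figure D4:**
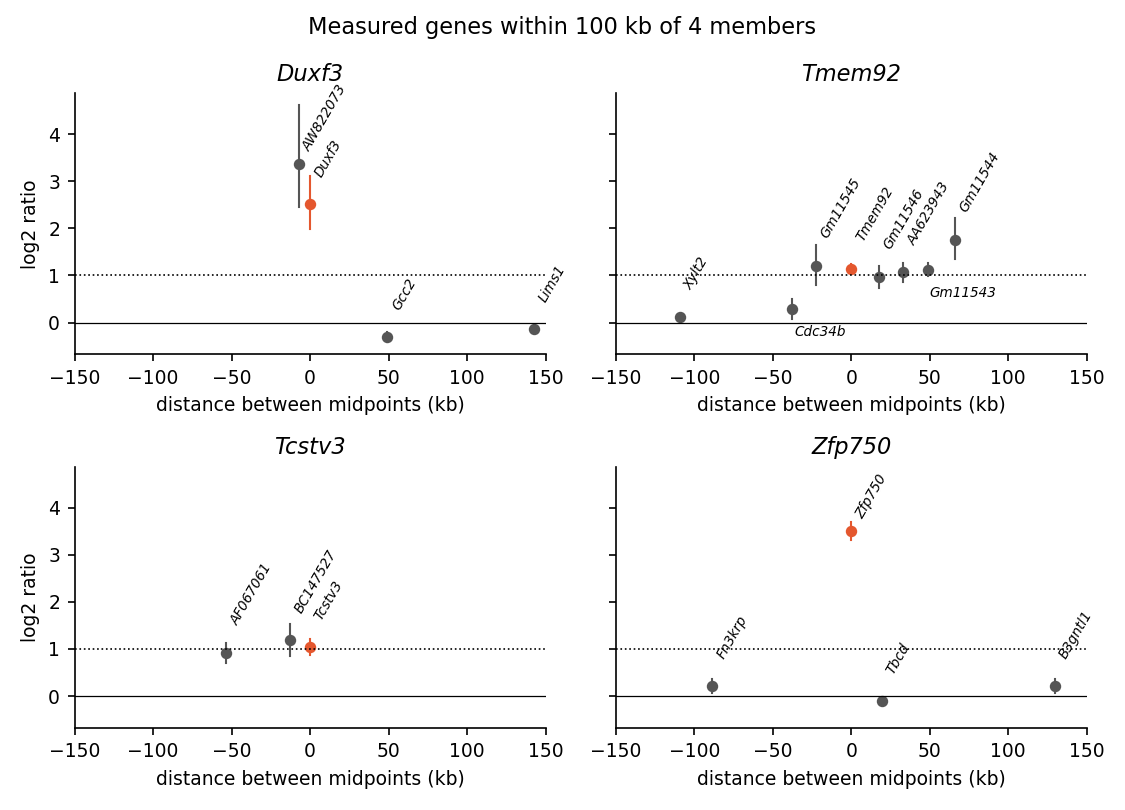
Log2 ratio with its 95% counting interval (y) for measured genes within 100 kb of 4 members, against the distance between gene midpoints in kb (x); the member is red, other genes are dark grey and the dotted line marks 2-fold. Beside Tmem92, 5 gene models lie between 0.97 and 1.76, Cdc34b and Xylt2 lie at 0.30 and 0.11, and those beside Zfp750 lie between -0.11 and 0.22.

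Other genes of the 2-cell-like state gave a wider view. Of 50 such genes listed, 45 were found by symbol and 29 were measured. All 29 had a log2 ratio above 0, against 48.4% of all measured genes, and this held under each of the 4 scalings used. The filter on the mean of both libraries has a part in this, because it admits a low gene more readily where Adriamycin is high. Of the 16 genes found but under 1 CPM, Pramel7 (37 and 30 reads), Pramel6 (33 and 25) and Obox7 (2 and 0) had log2 ratios below 0. Those were -0.33, -0.42 and -2.33, with intervals that include 0. Of the 29, 8 (27.6%) reached 2-fold in the higher direction and 0 in the lower, beside 17.0% and 6.95% of all measured genes, with a median log2 ratio of 0.72 and a range from 0.25 to 1.41. Many belong to families of copies (Usp17l, Tdpoz and Zscan4 genes among them), so these are not 29 separate observations.
The 8 higher ones were named by rule. Sp110, a nuclear body gene, had 70 reads untreated and 190 with Adriamycin (log2 ratio 1.41). Usp17le, a deubiquitinase gene, had 1154 and 2710 (1.20), and its relative Usp17la 494 and 1051 (1.06). B020004J07Rik had 124 and 321 reads (1.34). The BTB domain genes Tdpoz3 and Tdpoz4 had log2 ratios of 1.09 and 1.06, Gm4340 1.14 and Spz1, a transcription factor gene, 1.05. Gm4340 had 0.830 CPM untreated and, alone among the 29, was measured only through the Adriamycin library. With upper-quartile scaling 4 of the 29 were at least 2-fold higher.

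**Figure D5:**
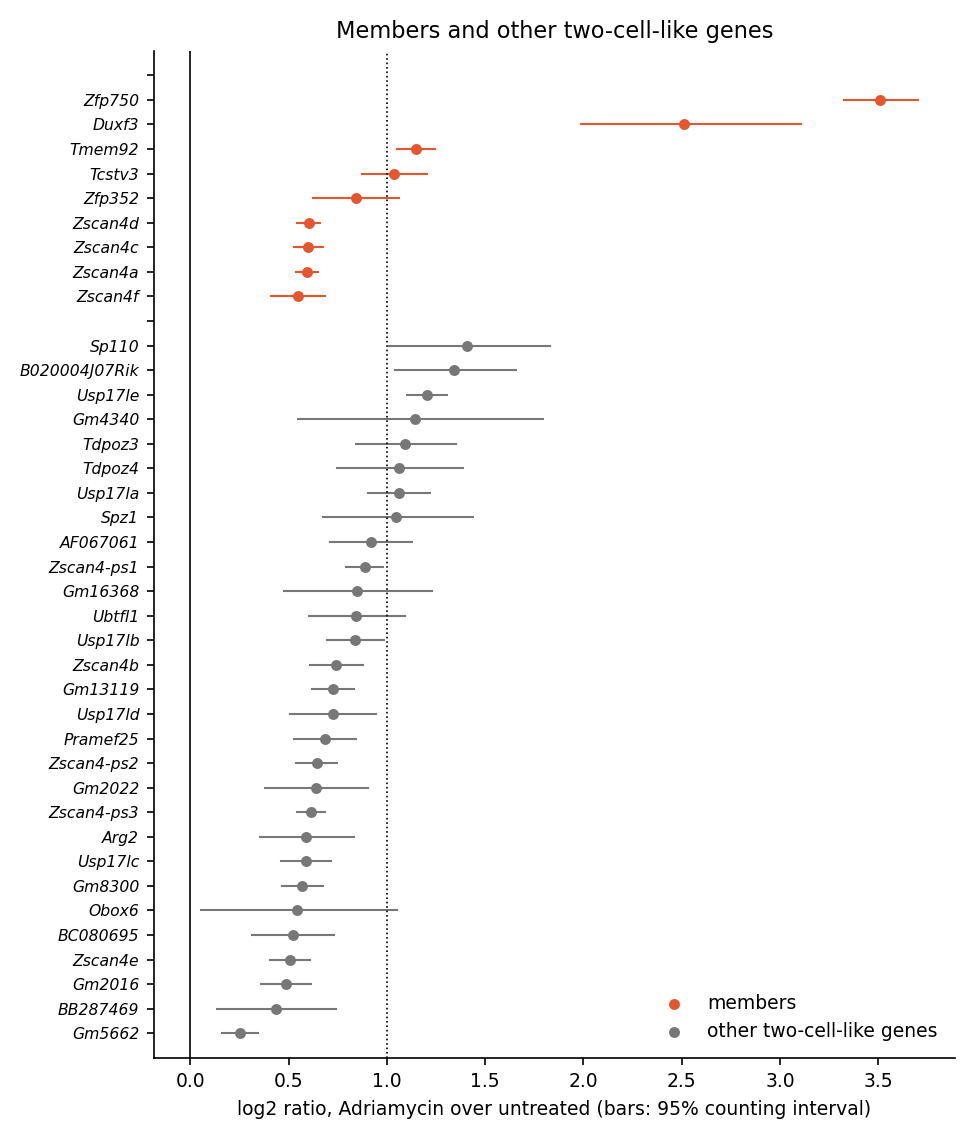
Log2 ratio of Adriamycin over untreated (x) with its 95% counting interval (bars) for the 9 measured members (red) and the 29 measured genes of the wider list (grey), sorted within each; the dotted line marks 2-fold. All points lie above 0, and Zfp750 and Duxf3 stand to the right of every gene of the wider list, whose highest is Sp110 at 1.41.

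Genes known to act upstream of Dux mostly had log2 ratios below 0 (8 of 9), as did 51.6% of all measured genes. Of the 9 activators or signalling genes, 0 reached 2-fold in the higher direction and 1 (11.1%) in the lower, beside 6.95% of all measured genes, with a median log2 ratio of -0.49. Dppa2 and Dppa4, a pair of proteins that bind and activate the Dux promoter, had log2 ratios of -0.49 and -0.64. The lower one was Grsf1, an RNA-binding protein gene, with 6937 and 3024 reads (-1.23). Trp53, which encodes the damage response factor p53, had a log2 ratio of -0.57.
Factors known to silence Dux or the 2-cell-like state mostly lay below 0 too (24 of 27). Of the 27 measured, 0 reached 2-fold in the higher direction and 8 (29.6%) in the lower, beside 6.95% of all measured genes, with a median log2 ratio of -0.60. Of the 27, 18 had a mean of at least 100 CPM, where the median of all genes was -0.31 and 8.89% were at least 2-fold lower. Lin28a, an RNA-binding protein, had 15497 and 2615 reads (-2.59), and Trim28, a corepressor of retroviral repeats, 175934 and 78487 (-1.19). Rif1, which binds telomeres and late-replicating DNA, had 18692 and 8456 (-1.17). The others were Mga (-1.12), a subunit of a Polycomb complex, Zmym2 (-1.13), the histone methyltransferase Ehmt2 (-1.11) and the corepressor Rcor2 (-1.06), with Sumo2 (-1.11), whose 155 and 73 reads are uncertain because it has processed copies. With total counts 3 of the 27 were at least 2-fold lower. The histone chaperone subunits Chaf1a (-0.06) and Chaf1b (-0.33), which also silence this state, did not reach 2-fold. Transcript levels of these genes say nothing of the activity of their proteins.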

How the data were processed

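The authors deposited unnormalized counts for every gene, in 1 table for each library. By featureCounts 2.0.3, per the file headers, reads of pairs with both ends aligned were counted over exons of annotation release 105 (GRCm39), with no option for strand, for multi-mapping reads or for counting pairs as 1 fragment. Trim Galore 0.3.4, HISAT2 2.0.4, featureCounts 1.6.0, DESeq2 1.16.1 and the builds mm9 and mm10 stand in the submitters' processing notes, which differ from the headers in part. The authors' DESeq2 output was not used here.

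Symbols came from GENCODE M21 names (52081 of 55414 identifiers matched) and gene positions from the tables. Library sizes were scaled with TMM factors of 0.951 and 1.05 (edgeR 4.0.16, R 4.3.3). Before each ratio 0.5 read, in proportion to library size, was added as pseudocount. Genes needed 1 CPM on average over both libraries, and 40543 fell below that. A gene was called at 2-fold, with no p-value. Alternatives used total counts, upper-quartile factors, DESeq2 1.42.0 size factors, pseudocounts of 0.25 and 1 read, and other filters. Ratio code was tested on simulated data (Python 3.11.15, numpy 2.4.6, pandas 2.3.3, scipy 1.17.1, biopython 1.88). A count of 0 allows up to 3 reads, or 0.0754 and 0.0740 CPM in the untreated and Adriamycin libraries.

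Members and lists were chosen with earlier results of these data known. Named genes are all members, their neighbours and up to 8 genes per list and direction past 2-fold. Genes within 100 kb beyond the nearest ones were named after their values were seen, as were list genes short of 2-fold.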

Additional observations from a re-analysis of the deposited data

How the results depend on the processing

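Scaling shifts every ratio alike. The median log2 ratio of all measured genes was -0.03 with TMM, 0.12 with total counts and -0.15 when upper-quartile factors were used. The median of the 4 Zscan4 members, 0.60 with TMM, was 0.74 and 0.47 under these, and 0.62 for the sum of the 9 family genes and pseudogenes. The 4 members at least 2-fold higher were 3 with upper-quartile factors, where Tcstv3 dropped out, and 3 with a mean of at least 5 CPM, where Duxf3 dropped out. The log2 ratio of Tcstv1 turned from 0.09 to -0.029 with upper-quartile factors. Of the wider list, 8 higher genes became 4 with upper-quartile factors and 4 with a mean of at least 5 CPM, but 10 with total counts and 12 with no filter. With no filter 1 gene of that list was lower, Obox7 with 2 and 0 reads. The 8 lower repressors were 3 with total counts. Without a filter 8514 genes were at least 2-fold higher and 4292 lower. Above an average of 5 CPM the higher ones were 1417. Both the number of genes tested and the share past 2-fold change with the filter. In the band of 1 to 5 CPM 31.8% of genes were at least 2-fold higher. The share was 19.9% at 5 to 20 CPM, 10.3% at 20 to 100 and 7.02% at 100 or more. DESeq2 size factors and the pseudocounts of 0.25 and 1 read left the counts of members and of the 3 lists as they were. No paired analysis was possible because each condition has 1 library. Depth limits Tcstv1 and Duxf3 most, and read length and copies limit the Zscan4 counts.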

Other observations

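Some cleavage-stage genes lay under 1 CPM and enter no count above. Obox3, an oocyte and early embryo homeobox gene, had 2 reads untreated and 19 with Adriamycin, or 2.94 in log2 (1.17 to 6.37). Obox1 had 2 and 8 reads, Obox2 2 and 7, and Tdpoz1 2 and 9, with intervals that include 0. Pramel7, with 37 and 30 reads, and Pramel6, with 33 and 25, went the other way. Their log2 ratios were -0.33 and -0.42, and their intervals include 0 as well. Duxbl1, a homeobox gene related to Dux, had 0 reads in both libraries, as did Obox8, Cphx1 and Tdpoz5. Copies of these genes were not searched for, and the counting kept no reads that map to several places. A count of 0 therefore need not mean that the gene was silent.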
